A study of Mus musculus with 4 samples.

Results

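Tau and its relatives are proteins that bind along microtubules. They were read here by every probe set whose single listed gene was Mapt, Map1a, Map1b, Map2, Map4 or Map6, under a current or older symbol. Of 12422 probe sets, 8 met that rule. They covered 5 of the 6 genes, out of 8251 genes named by a single-gene probe set in all: 3 probe sets for Mapt, 2 for Map4 and 1 each for Map2, Map1b and Map6, and none of the probe sets used here was named for Map1a alone. The family was chosen by the intensities of Mapt, which were already known to be higher in the transgenic pools. The difference between the groups is therefore given as a description for all members, with no p-value printed. A count of members that passed is given below, with nothing read from it.

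RNA came from the prefrontal cortex of female mice on 4 single-channel arrays. The 2 control arrays carried pools from FVB/N mice, and the 2 transgenic arrays carried pools from mice with an excess of the synaptic form of human acetylcholinesterase (AChE), which hydrolyses the transmitter acetylcholine. Each pool held RNA from 4 mice. The sources used here do not give age, the strain background of the transgenic mice, the promoter of the transgene or the number of founder lines. They also do not say whether any mouse contributed to more than 1 pool. Errors therefore cover only differences between pools, which may be technical, and the number of arrays limits their precision. The SEs given below also draw on the spread of the other tested probe sets, so they can differ from that of a probe set's own pools. For Map2 the SE was 0.49 where the pooled SD of its own pools was 0.93 log2 units. For Mapt 102431_at it was 0.14 where that SD was 0.094.

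Microtubules are polymers of alpha- and beta-tubulin that carry transport in axons and dendrites. Tau and the related Map2 and Map4 share a repeat domain that lies along the microtubule wall; tau is best known from axons, Map2 from dendrites and Map4 from many tissues beside neurons. Map1a and Map1b are made as precursors that are cut into a heavy and a light chain, with Map1b prominent in growing axons. Map6, also called STOP, keeps microtubules stable in the cold. Kinases such as those of the Mark family phosphorylate tau in its repeats and loosen it from the microtubule, and phosphatases reverse this.

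Arrays of the same group were closer to each other than arrays of different groups. Across probe sets, floored log2 intensities correlated at 0.982 for the control pair, 0.983 for the transgenic pair and 0.958 to 0.961 for arrays of different groups. Neuronal markers were present on all arrays, with none of 13 genes at the intensity floor throughout. They summed to 31569 and 31795 on the control arrays and to 26783 and 28831 on the transgenic arrays, and in limma 0 of the 13 tested genes rose and 2 fell (Snap25 and Camk2a), with 1 and 5 at an unadjusted p under 0.05. Of the astrocyte markers 2 of 8 rose (Aqp4 and Fabp7) and 1 fell (S100b), with 3 and 4 at an unadjusted p under 0.05 in limma. The log2 differences were 2.10 ± 0.36 and 3.69 ± 0.26 for Aqp4, 1.54 ± 0.12 for Fabp7 and -0.67 ± 0.14 for S100b. The astrocyte markers summed to 8467 and 8828 against 9049 and 9864, and the median log2 difference over their 12 probe sets was -0.03. Both blood markers rose, the haemoglobin gene Hba-a1 and the haem enzyme gene Alas2, summing to 2779 and 2396 on the control arrays against 8473 and 6945. Of the other lists, 0 rose and 1 fell of 5 tested oligodendrocyte genes, 0 and 1 of 9 for microglia, 1 and 0 of 6 for endothelium and 0 and 0 of 3 for striatum, and Cnp and Rgs9 lay at the floor on all arrays. At an unadjusted p under 0.05 in limma these counts were 0 and 2, 0 and 3, 2 and 0, and 0 and 0. Over all tested genes, 10.9% had a probe set with an adjusted p under 0.05, 5.84% higher and 5.17% lower. No such share is given for an unadjusted p, so nothing is read from the unadjusted counts here or in the lists below. The part of these marker shifts in the values below was not tested, and the limit on array versions given below for Mapt holds for them too. In pooled tissue, fewer cells of a type and less RNA per cell cannot be told apart.

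Mapt was far higher in the transgenic pools at all 3 of its probe sets. At 102431_at the control pools gave 132.4 and 116.3, and the transgenic pools 3389.4 and 3415.8. The mean went from 124 ± 11.4 to 3403 ± 18.7 (SD, n = 2 pools per group), a 27.4-fold difference (log2 difference 4.78 ± 0.14, SE of the fit). At 102742_g_at the readings were 111.6 and 94.4 against 2067.6 and 2097.5, a 20.3-fold difference (log2 4.34 ± 0.15). The transgenic readings were thus over an order of magnitude above the control readings at both probe sets, and the pools of a group lay close together. The remaining probe set, 102743_at, showed a smaller step. Its control pools gave 311.2 and 395.5 and its transgenic pools 1960.7 and 1557.8, which is a 4.98-fold difference (log2 2.32 ± 0.17). The sources used here do not say whether the control and transgenic pools were run on the same version of the array. Versions can differ in their probes, and were they to differ between the groups, these folds would not measure a difference in Mapt RNA; this was not tested. No control pool reached a transgenic pool at any Mapt probe set, and no reading of the family lay at the floor of 19.675 below which intensities were set equal.

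**Figure D1:**
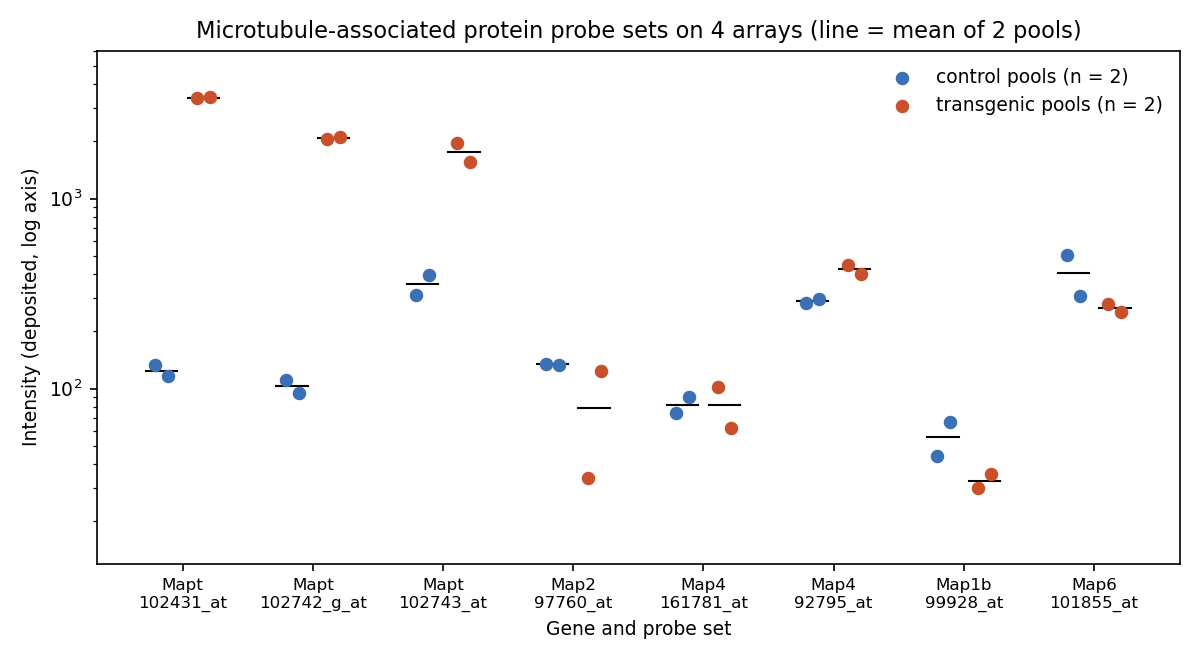
Deposited intensity (log axis) of the 8 probe sets of the family on the 4 arrays, blue points for the 2 control pools, orange points for the 2 transgenic pools and a line for the mean of each group. At the 3 Mapt probe sets all transgenic pools lie far above the control pools, while Map2, Map1b and Map6 are lower in the transgenic pools and the 2 Map4 probe sets differ from each other; levels of different probe sets are not comparable.

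The 3 Mapt probe sets did not give the same size of difference. The 2 that are listed under 1 source sequence, 102431_at and 102742_g_at, differed by 0.43 log2 units in their transgenic-minus-control difference. Each of them exceeded 102743_at, which is listed under another source sequence, by 2.46 and 2.03 units. These gaps were wider than the replicate spread. All 4 pool-by-pool differences lay between 4.68 and 4.88 at 102431_at, between 4.21 and 4.47 at 102742_g_at and between 1.98 and 2.66 at 102743_at, so the 3 ranges did not overlap. For scale, 783 pairs of tested probe sets of 1 gene with different source sequences had a median gap of 0.36, and 35 of these pairs were further apart than 102431_at and 102743_at. Among 160 pairs with the same source sequence the median gap was 0.28, and 48 were further apart than 102431_at and 102742_g_at. By size of the difference the Mapt probe sets stood 8th, 15th and 100th from the top of 7453 tested probe sets. Mapt was chosen with this contrast known, so nothing is read from these ranks.

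Whether the spread between pools of a group played a part in choosing the family is not known, so it is given as a description. At 102431_at the transgenic pools differed by only 0.011 log2 units and at 102742_g_at by 0.021, against medians of 0.11 and 0.13 over the 200 tested probe sets of closest mean level in the transgenic pools. A gap at least as wide was found at 195 and 188 of those 200. Their control pools differed by 0.19 and 0.24, close to the medians of 0.23 and 0.23 over the 200 tested probe sets of closest level in the control pools. At 102743_at the gaps were 0.35 between control pools and 0.33 between transgenic pools, against medians of 0.16 and 0.14, and 31 and 22 of the 200 had a gap at least as wide. The probe set with the smallest difference between groups thus had the widest gaps between pools of the 3.

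Map2, the dendritic relative of tau, did not share the direction of Mapt. At 97760_at the control pools gave 135.1 and 133.2, and the transgenic pools 34 and 123.5. The groups did not overlap, but transgenic pool 1 alone made most of the log2 difference of -1.05 ± 0.49, which was -0.12 without that pool and -1.98 without transgenic pool 2. The 1.86 log2 units between the transgenic pools were reached by 3 of the 200 tested probe sets of closest mean level in the transgenic pools, and by 29 of all 7453. In 19 of those 29, Map2 included, pool 1 was the lower.

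Map4, the family member found in many cell types, was read by 2 probe sets. At 92795_at the controls gave 283.9 and 297.4 and the transgenic pools 448.3 and 400.8, 1.46-fold higher with no overlap (log2 0.54 ± 0.15). At 161781_at it was 74.3 and 90.5 against 102.5 and 62.4, so the control readings fell inside the transgenic range (log2 -0.04 ± 0.31). The gap between the 2 probe sets, 0.58 log2 units, was close to the 0.55 by which the ratio of the 2 varied between the transgenic pools.

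Map1b and Map6 were lower in the transgenic pools, with wide control pools. For Map1b, the growth-phase protein, 99928_at gave 44.3 and 66.7 in controls against 29.9 and 35.7. Its mean level was below the 49.4 needed to be tested, so it has no SE, and its log2 difference of -0.73 shrank to -0.20 with a floor at 50.9. For Map6, 101855_at gave 504.5 and 307.2 in controls against 277.3 and 253.1 (log2 -0.57 ± 0.22). Control pool 1 set its size: without that pool the difference was -0.21, and without control pool 2 it was -0.93. The 0.72 log2 units between its control pools were reached by 4 of the 200 tested probe sets of closest mean level in the control pools.

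Of the 7 tested probe sets of the family, 3 passed an adjusted p of 0.05, all higher and all of Mapt, where 10.0% of all tested probe sets passed, 5.46% as higher and 4.56% as lower. Groups did not overlap at 7 of the 8 probe sets, 4 higher and 3 lower. The same held for 53.7% of all tested probe sets, 23.8% higher and 29.9% lower. Since the family was chosen with this contrast known, nothing is read from these counts. Of the other family members, 4 of the 5 probe sets differed by under 1 log2 unit, and the fifth, Map2, rested on 1 pool. Mapt was the reason for choosing the family, so nothing is read from their being smaller than Mapt. Of all tested probe sets, 5.018% had a larger absolute difference than Map2, 15.04% than Map6 and 16.33% than Map4 92795_at. For Map4 161781_at it was 91.2%, and Map1b was not tested.

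**Figure D2:**
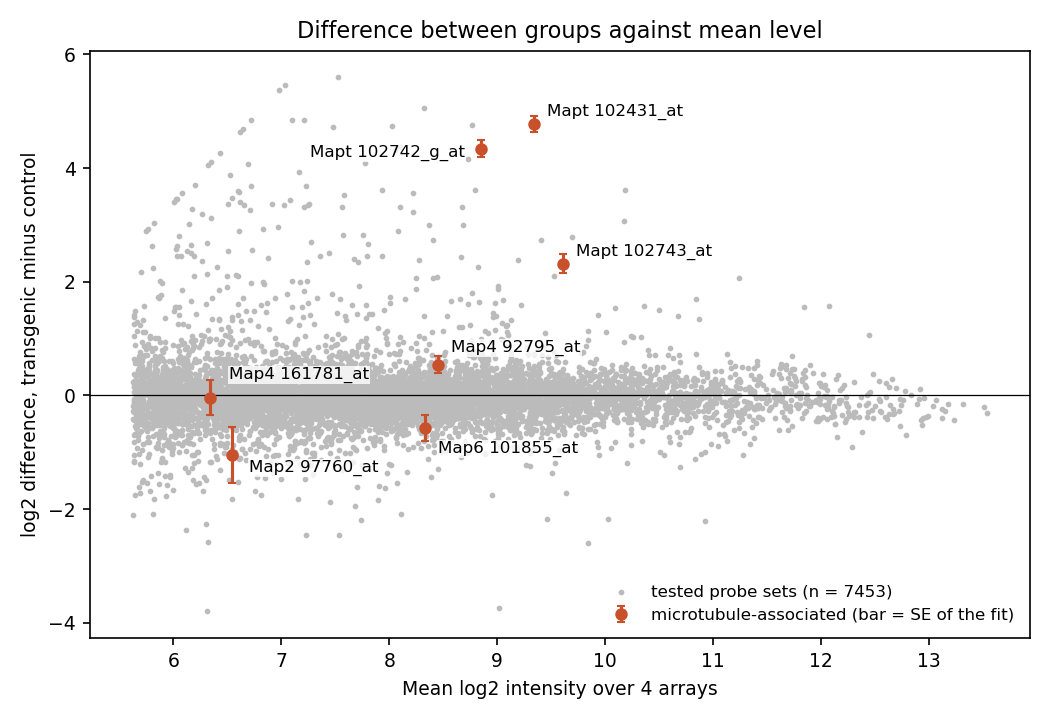
Log2 difference, transgenic minus control, against mean log2 intensity over the 4 arrays for all 7453 tested probe sets (grey) and the 7 tested members of the family (orange, bars are SEs of the fit). The 3 Mapt probe sets stand at 4.78, 4.34 and 2.32, while those of Map2, Map4 and Map6 lie between -1.05 and 0.54.

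Other genes had array profiles close to those of Mapt. Likeness was the root mean square difference, over the 4 arrays, of log2 values centred on each probe set's own mean, among tested probe sets of other genes. Closest to 102431_at were Cd47 (0.054 log2 units), which encodes a surface signal against phagocytosis, the nuclear factor gene Nfib (0.076), the neuronal RNA-binding protein gene Elavl3 (0.098), the transcription factor gene Mef2c (0.14) and the mitochondrial enzyme gene Gpd2 (0.17). The Cd47 probe set, 103611_at, went from 84.8 and 82.6 in controls to 2259.8 and 2257.1. The second Mapt probe set of the same source sequence was at 0.22 from 102431_at, so 6 probe sets of other genes were closer to it than its own partner. For Nfib and Elavl3 both control readings lay at the floor, so their closeness depends on where the floor was set.

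The nearest to 102742_g_at were the kinase gene Hipk2 (0.094), the chloride transporter gene Clcn3 (0.12), the DNA-binding protein gene Pura (0.14), Elavl3 (0.17) and the transcription factor gene Klf7 (0.20), with Hipk2 and Klf7 at the floor in both control pools. The nearest to 102743_at were a different set: the transcription factor gene Sp1 (0.093), the G protein gene Gna11 (0.12), the formin gene Diaph2 (0.13), Klf5 (0.16) and the signalling gene Smad4 (0.17). Apart from Elavl3, no gene was among the 5 nearest of more than 1 Mapt probe set. These values describe 4 arrays in 2 groups, and any probe set with a like difference between the groups comes out close. The limit on array versions given for Mapt holds for these genes too.

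**Figure D3:**
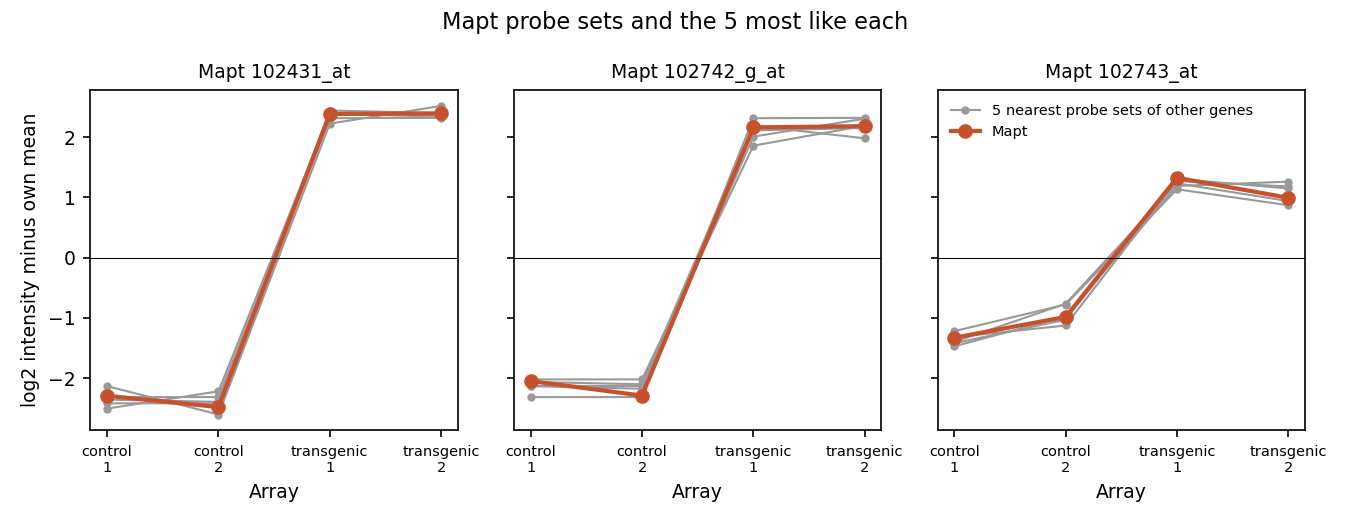
Log2 intensity minus the probe set's own mean on the 4 arrays, for each Mapt probe set (orange) and the 5 tested probe sets of other genes closest to it (grey). The first 2 panels step by over 4 log2 units between the groups and the panel of 102743_at by 2.32.

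None of the 6 genes tested among the 30 entries nearest to Mapt on its chromosome passed as higher. Of the 30 entries nearest to Mapt in RefSeq's GRCm38.p6 table of mouse genes, 15 on either side, 7 genes had 11 probe sets, of which 9 probe sets of 6 genes were tested. In limma 0 of the 9 passed, and 1 had an unadjusted p under 0.05. The closest measured neighbour, the corticotropin-releasing hormone receptor gene Crhr1, gave 184.3 and 185.9 in controls against 209.3 and 162 (log2 -0.01 ± 0.20). Nsf, the ATPase that recycles the membrane fusion machinery, read 3281.5 and 2230.6 against 1460.8 and 1942 (log2 -0.68 ± 0.19, adjusted p = 0.0527). Its adjusted p was 4.94e-05 without control replicate 2, 0.0380 with a filter at the 60th percentile, 0.0399 with the replicate block, 0.0438 with median scaling and 0.0468 with 20 added in place of a floor. The small GTPase gene Arf2 had 0.26 ± 0.46, the signalling ligand gene Wnt3 had 0.02 ± 0.34, and the muscle myosin light chain gene Myl4 had -0.28 ± 0.18 and -0.33 ± 0.17 at its 2 probe sets. Gosr2, a vesicle transport gene, had -0.03, -0.14 and -0.51 at 3 tested probe sets, the last with an adjusted p of 0.330, and 0.0433 without control replicate 2. Another Gosr2 probe set and that of the integrin gene Itgb3 lay at the floor on all 4 arrays.

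Genes that act on the same polymer or on tau itself gave the surroundings of these values. At gene level 10.9% of all tested genes had a passing probe set, 5.84% higher and 5.17% lower, and the median log2 difference of all tested probe sets was -0.03. Among tubulins, the building blocks of the microtubule, 1 of 12 tested genes rose and 0 fell in limma (1 and 3 at an unadjusted p under 0.05), with a median of -0.14 over 16 probe sets; 2 genes passed with the replicate block, after a filter at the 60th percentile or after quantile normalization. The riser was Tuba4a (0.45 ± 0.12, adjusted p = 0.0405), whose adjusted p was 0.0820 to 0.143 when any 1 of the 4 pools was left out. Tubulin genes are near copies, so which of them a probe set read is uncertain. Of 27 other microtubule binding and dynamics genes 1 rose and 1 fell (median -0.07), and 4 passed with the replicate block. Mapre1, which tracks growing microtubule ends, rose by 1.28 ± 0.17 at 93306_at (adjusted p = 0.000947) and had -0.01 ± 0.14 at 92350_at. Map1lc3b, a light chain of the Map1 proteins used in autophagy, fell by 0.65 ± 0.16 at 160287_at (adjusted p = 0.0293, and 0.130 without transgenic replicate 1), and had -0.28 ± 0.13 at 160288_at.

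Of 26 tested kinesin, dynein and dynactin genes, the motors that walk on microtubules, 2 rose and 5 fell (median -0.15). The kinesin heavy chain Kif5b rose by 2.73 ± 0.20 (adjusted p = 1.89e-05) and the dynein light chain Dynlrb1 by 0.79 ± 0.19 at 94862_i_at (0.0268, with -0.05 ± 0.22 at 94863_r_at). The neuronal kinesin Kif5a fell by 1.23 ± 0.27 at 96583_s_at (0.0206) and had -0.69 ± 0.37 at 98827_i_at, which did not pass. Kif1a, also a neuronal kinesin, fell by 0.92 ± 0.19 (0.0142). The dynactin subunit Dctn2 fell by 0.82 ± 0.13 at 94299_at (0.00433, with -0.20 ± 0.13 at 94300_f_at). Without transgenic replicate 1 the list had 2 called genes, and the adjusted p was 0.101 for Kif5a, 0.0782 for Kif1a and 0.159 for Dynlrb1. Without transgenic replicate 2 it had 4, with 0.0517 for Dctn2 and 0.158 for Dynlrb1, and without control replicate 1 Dynlrb1 had 0.0780.

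Of 33 tested kinase genes known to phosphorylate tau, 6 had a probe set that rose and 5 had one that fell, Prkcb in both counts (median -0.07). Mark2, which phosphorylates the tau repeats, rose from 353.8 and 313.8 to 4292.9 and 3899.5 at 99458_i_at (3.62 ± 0.13, adjusted p = 2.40e-07). It also rose by 3.60 ± 0.26 at 99459_f_at, which is listed under the source sequence of 99458_i_at, and had -0.38 ± 0.18 at 104244_at. Prkce rose by 3.94 ± 0.22 at 94161_at and had 0.16 ± 0.16 at 103223_at. Prkcb rose by 4.84 ± 0.33 at 99511_at and fell by 0.40 ± 0.10 at 99510_at. Control readings were 35.9 and 37.5 at 94161_at and 38.6 and 19.5 at 99511_at, the last at the floor. With the floor at the 40th percentile the rise was 3.47 for Prkce and 3.96 for Prkcb. The fall of Prkcb had an adjusted p of 0.0332, and of 0.0693 to 0.169 when any 1 of the 4 pools was left out. The limit on array versions given for Mapt holds for every difference between the groups in this text. That includes large rises at some probe sets of a gene with none at another. The casein kinases Csnk2a1 and Csnk1d fell by 1.32 ± 0.22 at 104545_at (adjusted p = 0.00409) and 1.01 ± 0.17 at 97263_s_at (0.00445), and Camk2a fell by 1.54 ± 0.35 (0.0241, and 0.0836 without transgenic replicate 1). Csnk2a1 also fell by 1.49 ± 0.26 at 104546_g_at (0.00548), which is listed under the source sequence of 104545_at. The remaining tested probe sets of both casein kinase genes did not pass, with 0.23 ± 0.17 and 0.21 ± 0.18 for Csnk2a1 at 103441_at and 160690_at and 0.47 ± 0.15 (adjusted p = 0.0882) and -0.11 ± 0.30 for Csnk1d at 97262_at and 162001_f_at.

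Of 16 tested genes of phosphatases known to act on tau, 3 rose and 0 fell in limma (5 and 1 at an unadjusted p under 0.05; median 0.08). The calcineurin subunit Ppp3ca rose by 1.34 ± 0.13 (adjusted p = 0.000109), the protein phosphatase 2A subunit Ppp2r5a by 0.84 ± 0.15 (0.00714, and 0.0750 without transgenic replicate 2) and the protein phosphatase 1 subunit Ppp1cb by 0.71 ± 0.19 (0.0479). The adjusted p of Ppp1cb was 0.264 without transgenic replicate 2, 0.0713 with quantile normalization, 0.0618 with the floor at the 40th percentile and 0.0539 with a robust prior. Of 17 neurofilament and other neuronal cytoskeleton genes 0 rose and 3 fell in limma (4 and 4 at an unadjusted p under 0.05; median 0.07): Ank3 of the axon initial segment by 0.66 ± 0.13 at 98476_at (adjusted p = 0.0127; 0.27 ± 0.16 at 98477_s_at), the spectrin Sptan1 by 0.46 ± 0.11 (0.0251) and the dynamin Dnm1 by 0.43 at both of its probe sets (0.0272 and 0.0282). When 1 pool was left out, the adjusted p of Sptan1 was 0.0582 to 0.100 for any of the 4. That of Ank3 was 0.0590 to 0.0773 without control replicate 2 or either transgenic pool, and that of Dnm1 was 0.115 to 0.186 without control replicate 1 or transgenic replicate 2 and 0.0501 at 1 of its probe sets without control replicate 2. The probe sets of Dnm1, which are listed under 1 source sequence, had 0.0671 and 0.105 with quantile normalization. The list had 0 to 1 called genes without control replicate 2 or either transgenic pool.

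**Figure D4:**
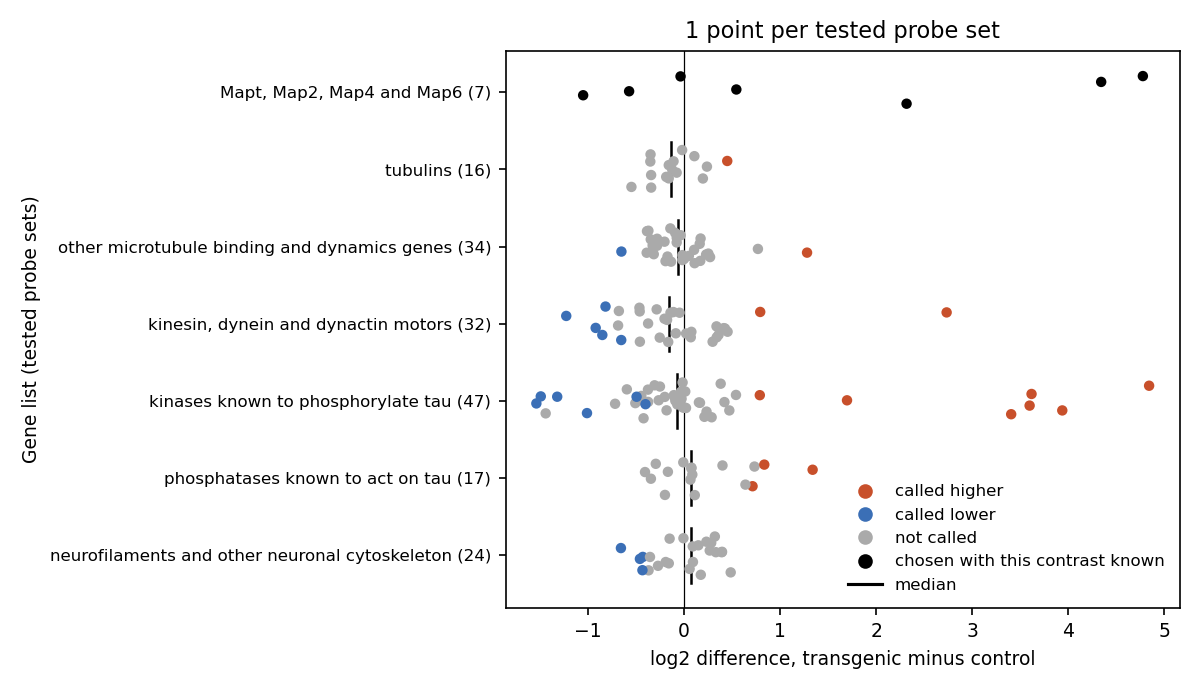
Log2 difference, transgenic minus control, of each tested probe set in the family (black) and in 6 lists of microtubule and tau-related genes, with rises that passed in orange, falls that passed in blue, the rest in grey and the list median as a line. Tubulins stay within -0.55 and 0.45, whereas single kinase probe sets reach 4.84.

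The 6 lists were chosen with earlier results of these data known, so nothing is read from their share of passing genes. Over the 6 lists together, 26 of 131 tested genes passed (19.8%, against 10.9% of all tested genes), 13 with a rise and 14 with a fall. The count was 15 without transgenic replicate 1 and 17 without transgenic replicate 2.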

How the data were processed

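Per array, the deposited table gives each probe set a single linear intensity, a unit taken from the values themselves. The sources used here do not say how the authors summarised probes into that intensity. Array medians lay between 86.6 and 88.2, so the values were used as deposited. After 66 control probe sets were left out, 12422 remained, of which 10833 had a single gene symbol, 396 several and 1193 none. The probe-gene table is old, so current symbols were looked up in RefSeq by gene identifier, which was found for 10817 of the 10833. Values were floored at their 25th percentile (19.675) and log2-transformed, and probe sets with a mean log2 value above the 40th percentile (an intensity of 49.4) were tested, which left 7453. Differences, transgenic minus control, and their SEs come from a two-sided limma fit (limma 3.58.1, R 4.3.3, eBayes with a mean-variance trend), adjusted by Benjamini-Hochberg across all tested probe sets with a threshold of 0.05, after a check on simulated data. Residual degrees of freedom were 2, plus 7.51 from the shared variance estimate. Folds are 2 to the power of the log2 difference. Gaps between pools were set against the 200 tested probe sets of closest level in the same group, a match chosen after the data were seen.

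The family and the gene lists were chosen with earlier results of these data known. Named genes were all family members, every called gene of a list with 6 or fewer, otherwise the 3 of smallest p in each direction, every measured neighbour of Mapt, and the 5 probe sets most like each Mapt probe set. Alternatives changed the floor, the filter, the scaling, the variance model and the replicate block, or left out 1 array, with the filter then taken over the other 3.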

Additional observations from a re-analysis of the deposited data

How the results depend on the processing

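The 3 Mapt differences kept their sign under all alternatives, from 4.57 to 4.87 at 102431_at, 4.10 to 4.46 at 102742_g_at and 2.14 to 2.49 at 102743_at; the lowest values of the first 2, 4.57 and 4.10, came from adding 20 in place of a floor. That of Map1b was -0.20 with a floor at the 40th percentile. Without a filter on dim probe sets 48 probe sets passed over the array and 2 genes in the microtubule and tau-related lists, and without the intensity trend 395 and 11; the cause was not tested. Leaving out 1 array gave 387 to 745 probe sets and 15 to 26 list genes. Of the neighbours of Mapt 1 passed with 20 added, with a filter at the 60th percentile, with median scaling and with the replicate block, and 0 to 2 with 1 array left out. With the replicate number as a block 892 probe sets passed. Arrays of the same number share only that number in the labels, and their deviations from the group means correlated at 0.0555. Beside the neighbours, the replicate block moved the counts of the tubulins (1 to 2) and of the other microtubule binding and dynamics genes (2 to 4) by over 1.5 times, and among the named probe sets outside the family it changed the call of Nsf alone. Of the 38 of these that passed, 31 did not pass without a filter, 14 without the intensity trend, 3 with quantile normalization, 1 with the floor at the 40th percentile, 1 with a robust prior and 5 to 10 of those still tested with 1 array left out. Matched on the mean of all 4 arrays instead, the median control gaps beside the 3 Mapt probe sets were 0.13, 0.14 and 0.13 and the median transgenic gaps 0.18, 0.17 and 0.16, and the gap of Map2 was reached by 0 and that of Map6 by 3 of 200. A filter at the 60th percentile left Map2 and Map4 161781_at untested. With 2 arrays a group, the spread between 2 pools limits every value here.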
